A study of Sus scrofa with 5 samples.

Results

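The miRNA content of urine exosomes was set against that of serum exosomes in the pig. Exosomes are small vesicles that cells release into body fluids. Each fluid gave 1 library, from pigs of the Chinese Rongchang breed aged 180 days. Neither label names a treatment or a genotype. The sources used here give neither the number of animals behind a library nor whether the same animals gave urine and serum. Plasma, semen and bile were sequenced in the same series. Of the 411 miRNA names in the deposited tables, the 115 compared here are those with 10 or more counts in urine or 400 or more CPM in serum. CPM are counts scaled so that a library's miRNA counts sum to 1000000. The prefix ssc- is left out of every name.

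A miRNA is cut from a hairpin precursor, whose 5p and 3p arms can each give a mature miRNA that represses mRNAs matching its seed. Urine vesicles are known to be shed mainly by the cells that line the nephron and the urinary tract, since intact vesicles pass the glomerular filter poorly. Serum vesicles come from blood cells, platelets, endothelium and organs such as the liver, and clotting adds vesicles from platelets and blood cells.

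The urine library held 26522 miRNA counts over 84 listed miRNAs and the serum library 473168 counts over 180. Each listed miRNA had 10 or more counts, so a value listed at 0 stands for 0 to 9 reads. In urine 10 counts are 377 CPM and in serum 21.1 CPM. A value listed at 0 was read as 10 counts in the ratio of a single miRNA, which makes that ratio a bound apart from counting error. In shares and in sums of a list it was left at 0, except where 9 reads are stated, so those values are not bounds. Intervals are 95% intervals for counting error only, and with 1 library a side there is no replicate check and no p-value. "Higher" or "lower" is used below for a CPM ratio of at least 2-fold.

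Of the 115 miRNAs, 59 met both criteria, 25 entered through urine alone and 31 through serum alone. The 59 took 96.5% of urine counts and 90.8% of serum counts. The 25 had under 400 CPM in serum and could come out only as higher or within 2-fold, as 24 and 1 of them did. The 31 were listed at 0 in urine and could come out only as lower or unresolved. Where a miRNA that entered through 1 library lay past 2-fold, its direction was therefore fixed by the entry rule and is a description. At the limits, miR-425-3p entered with 201 serum counts (425 CPM) and miR-326 stayed outside with 187 (395 CPM), both listed at 0 in urine. miR-122 and miR-423-3p entered with 10 urine counts each, while their serum levels alone, 3893 and 3428 CPM, would have admitted them. Another 74 miRNAs listed in serum lay under both limits and held 0.715% of its counts.

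By share of counts, 3 miRNAs set urine apart from serum. miR-30a-5p, the leading member of a family abundant in kidney epithelium, held 22.1% of urine counts and 0.323% of serum counts, a gain of 21.8 percentage points. miR-10b held 12.0% against 0.569% and miR-10a-5p 4.63% against 0.504%. These 3 gained 37.3 points together, out of 49.7 points gained by 46 miRNAs. The losses were spread more widely, over 69 miRNAs, of which the 5 largest lost 25.01 points out of 49.03. miR-451, made in red blood cells, went from 8.48% in serum to 0.468% in urine, and miR-140-3p, known from cartilage, from 8.13% to 0.347%. let-7g, miR-92a and miR-215 followed, with losses between 3.20 and 2.95 points. miR-148a-3p was abundant in both libraries, with 16.6% in urine and 18.1% in serum, and 6 of the 10 most abundant miRNAs were the same in both.

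**Figure D1:**
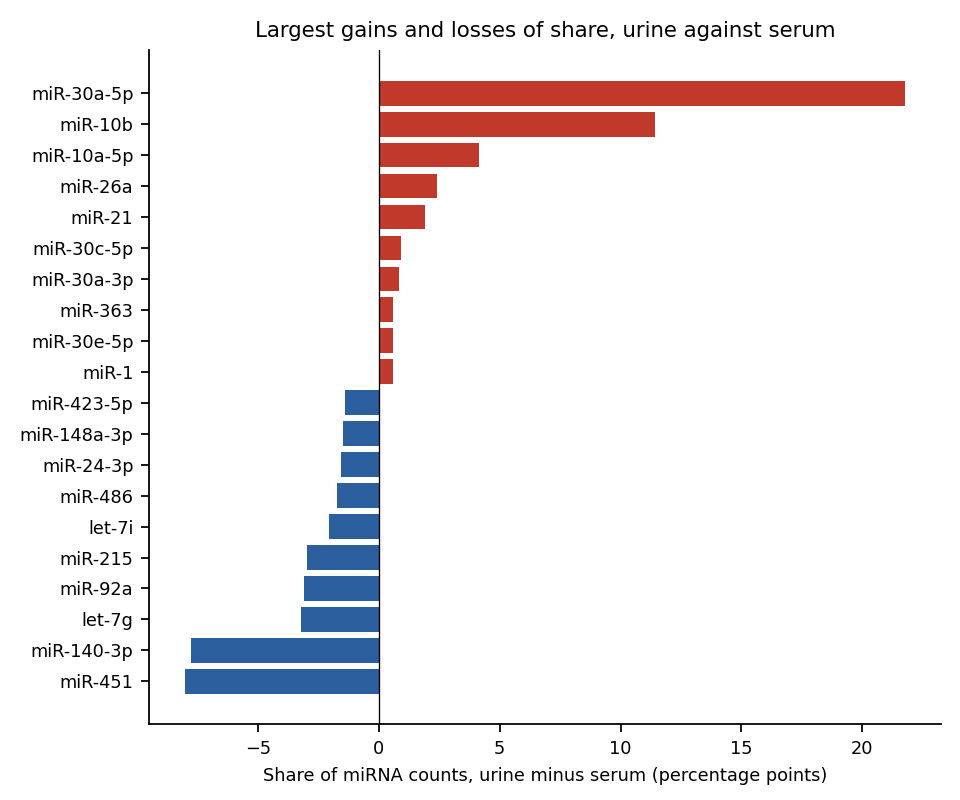
Share of a library's miRNA counts in urine minus that in serum, in percentage points, for the 10 miRNAs with the largest gain (red) and the 10 with the largest loss (blue). miR-30a-5p gained 21.8 points and miR-451 lost the most, from 8.48% to 0.468%.

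By ratio of CPM, 35 of the 115 miRNAs were higher in urine (30.4%) and 40 were lower (34.8%). Another 24 lay within 2-fold, with ratios of urine over serum from 0.54 to 1.96, and took 42.7% of urine counts and 46.4% of serum counts. The remaining 16 were listed at 0 in urine with serum levels from 425 to 744 CPM, below the 754 CPM at which the urine limit allows a 2-fold difference to be seen. Among the 59 that met both criteria, 11 were higher (18.6%) and 25 lower (42.4%). With the whole interval past 2-fold the counts over the 115 were 32 and 29. The higher miRNAs made up 46.7% of those past 2-fold, and 57.4% where miR-30a-5p and miR-148a-3p were left out of both totals, with 39 higher and 29 lower.

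These ratios compare the make-up of the miRNA fraction, not the amount of miRNA. The authors' RPM scale the reads to a larger total of the library, which can be recovered from them. Of that total miRNAs took 0.246% of the urine reads (0.243 to 0.249) and 4.47% of the serum reads (4.45 to 4.48). On that scale every ratio of urine over serum is 18.2 times smaller. The median log2 ratio of the 75 miRNAs listed in both libraries, 0.00 on CPM, becomes -4.18, and 10 miRNAs stay higher in urine against 92 lower (9.80% higher). The 10 are miR-204, miR-450c-5p, miR-30c-3p, miR-30a-5p, miR-9, miR-1285, miR-30a-3p, miR-429, miR-196b-5p and miR-450b-5p. Of these, miR-30a-5p stood at 542 RPM in urine and 144 RPM in serum, and miR-204 at 11.6 RPM and 0.

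**Figure D2:**
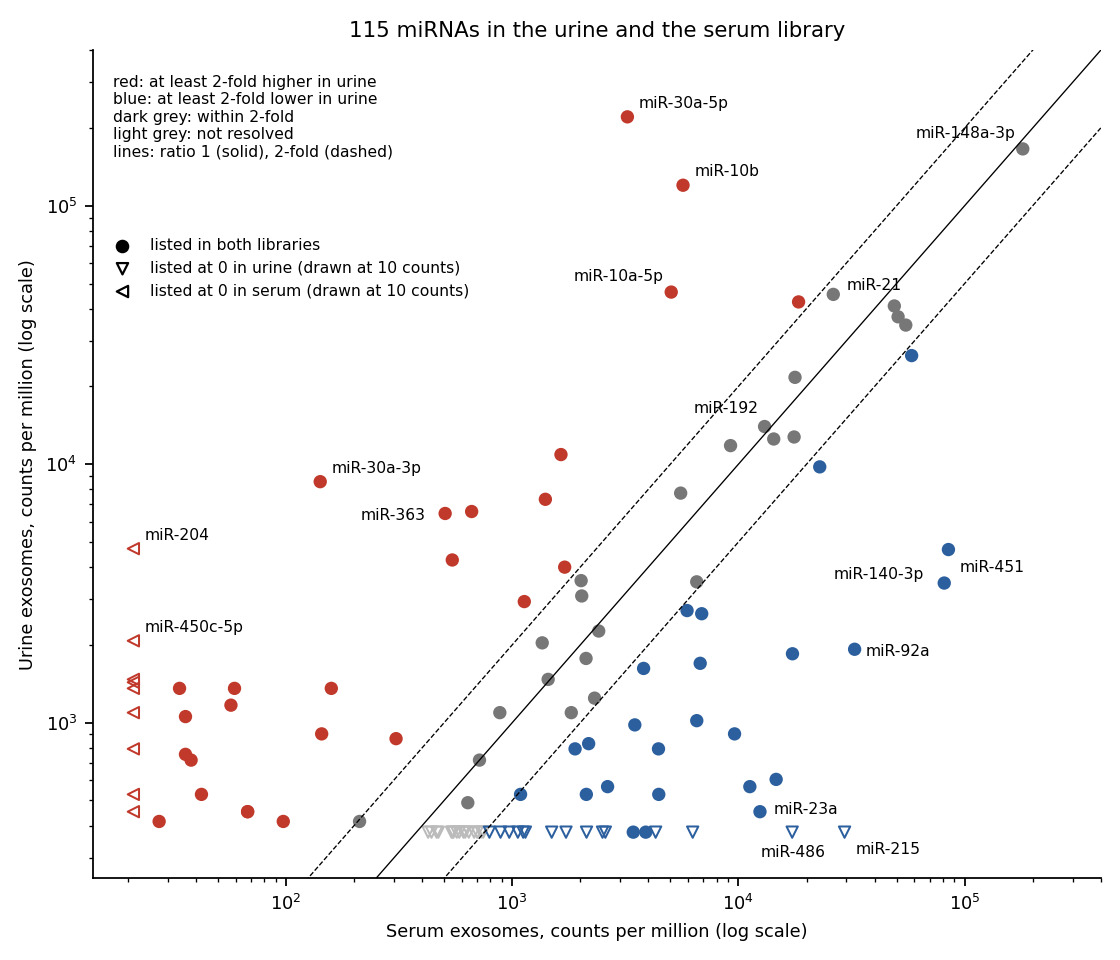
CPM in serum (x axis) and in urine (y axis), both on log scales, of the 115 miRNAs, with a line at equal CPM and dashed lines at 2-fold; open symbols are miRNAs listed at 0 in a library, drawn at 10 counts. miR-30a-5p and miR-10b lie far above the lines, miR-451, miR-140-3p, miR-92a and miR-215 far below, and miR-148a-3p near equality; on the authors' RPM all points would stand 18.2 times lower on the y axis.

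The miR-30 family shares a seed and is expressed along the nephron, podocytes included. Of its 8 names measured here, 6 were higher in urine (30.4% of all 115 were) and none was lower. The 6 are both arms of miR-30a, miR-30c and miR-30e, so they are not 6 separate members that share the seed. miR-30a-3p and miR-30c-3p entered through urine alone. Of the 6 that met both criteria 4 were higher (18.6% of the 59 such miRNAs were). Its summed counts took 27.6% of urine (27.0 to 28.1) and 2.67% of serum (2.62 to 2.72), so that the sum was 10.3 times higher in urine on CPM, but 0.57 times the serum level on the authors' RPM. miR-30a-5p had 5855 counts in urine and 1528 in serum, or 220760 against 3229 CPM, a ratio of 68.4 (64.6 to 72.4). Its partner arm miR-30a-3p, with 227 and 67 counts, had a ratio of 60.4 (45.8 to 80.6). The intervals of the 2 arms overlap, so no difference between them was resolved.

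The other miR-30 members differed less between the fluids. miR-30c-5p was 6.64 times higher in urine (5.78 to 7.60), with 289 and 777 counts. miR-30e-5p was 5.22 times higher (4.43 to 6.14) and miR-30e-3p 2.60 times (2.02 to 3.30). miR-30c-3p had 39 counts in urine and was listed at 0 in serum, at least 69.6 times higher (34.1 at the lower end of the interval). The 2 remaining members, encoded side by side, lay within 2-fold: miR-30b-5p at 1.501 times (1.11 to 1.98) and miR-30d at 1.22 times (1.12 to 1.33).

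The family was thus composed differently in the 2 fluids, a comparison within each library that no scaling between libraries touches. miR-30d led in serum, with 66.7% of the family's counts (65.8 to 67.5), and held 7.86% in urine (7.26 to 8.51). miR-30a-5p led in urine, with 80.1% (79.2 to 81.0), and held 12.1% in serum (11.5 to 12.7). miR-30b-5p held 0.739% of the family in urine and 5.08% in serum. The rule by which the authors assigned reads that match several of these closely related miRNAs is not stated.

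The HOX gene clusters, which pattern the body axis, also encode miR-10a, miR-10b and miR-196b, and kidney expresses them. All 3 members measured were higher in urine (30.4% of all 115 were), although miR-196b-5p entered through urine alone. miR-10b had 3184 counts in urine and 2692 in serum, or 120051 against 5689 CPM, a ratio of 21.1 (20.04 to 22.2). miR-10a-5p, at 46339 against 5045 CPM, was 9.19 times higher (8.57 to 9.84), and on the authors' RPM 0.51 times the serum level. High levels were not particular to urine: semen held 49776 CPM of miR-10b and 53277 CPM of miR-10a-5p, the latter above urine. Plasma stood at 205 and 218 CPM and bile at 2006 and 4136 CPM. miR-196b-5p rested on 36 and 16 counts and was 40.1 times higher (21.7 to 77.5). Together the HOX list took 16.8% of urine counts (16.3 to 17.2) and 1.08% of serum counts (1.05 to 1.11), 15.5 times higher on CPM and 0.85 times on the authors' RPM. miR-10a-5p made up 27.8% of the pair with miR-10b in urine (26.5 to 29.2) and 47.0% in serum (45.6 to 48.4), although the pair has nearly the same sequence and reads could have been exchanged between its members.

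The list of miRNAs known from kidney tubule epithelium had 4 measured members. Of these 2 were higher in urine (30.4% of all 115 were), 1 lay within 2-fold and 1 was lower (34.8% of all 115 were). The entry rule fixed the direction of 3: miR-204 and miR-194a entered through urine alone and miR-215 through serum alone. miR-192 was the only one that met both criteria. miR-204, encoded in an intron of TRPM3 and expressed in kidney and retinal epithelium, had 125 counts in urine (4713 CPM) and was listed at 0 in serum, at least 223 times higher (117 at the lower end). It was listed at 0 in plasma as well and stood at 68.3 CPM in semen and 155 CPM in bile. miR-194a, with 36 urine counts and 28 serum counts, was 22.9 times higher (13.6 to 39.0). Its high level was not particular to urine: bile held 4452 CPM of it, above the 1357 CPM of urine. Plasma stood at 13.9 CPM and semen at 22.3 CPM.

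miR-192, which neighbours miR-194a and is abundant in liver, gut and kidney, was level, at 13988 CPM in urine and 13050 CPM in serum (ratio 1.07, 0.96 to 1.19). Bile held 137441 CPM of miR-192, plasma 3795 CPM and semen 118 CPM. miR-215, a relative with nearly the same sequence as miR-192, was listed at 0 in urine and had 13939 counts (29459 CPM) in serum, at least 78.1-fold lower in urine (42.5 at the lower end). Its level was 2679 CPM in plasma and 284 CPM in bile. Through miR-215 the sum of the kidney list was lower in urine, at 2.01% of counts (1.84 to 2.18) against 4.26% in serum (4.21 to 4.32). The neighbours miR-192 and miR-194a stood in a ratio of 371 to 36 counts in urine and 6175 to 28 in serum.

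Other epithelia were represented by few counts. miR-429, of the miR-200 family that maintains the epithelial state, had 29 counts in urine and was listed at 0 in serum, at least 51.7 times higher (24.5 at the lower end). It entered through urine alone and could not be lower. Semen held 772 CPM of miR-429 beside 1093 CPM in urine. miR-182, which met both criteria, was 2.61 times lower in urine (2.06 to 3.35), with 70 and 3256 counts. Its cluster partner miR-183, listed at 0 in urine, was not resolved. miR-183 entered through serum alone and could not be higher. miR-205, known from urothelium and other stratified epithelia, was under both limits, listed at 0 in urine and with 99 counts in serum. miR-122, the leading miRNA of hepatocytes, was 10.3 times lower in urine (5.60 to 21.6), with 10 and 1842 counts. Names of male germ cells (miR-34c and miR-202) were listed at 0 in both libraries.

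Of the 4 striated muscle miRNAs measured, the 2 that met both criteria, miR-1 and miR-206, were higher in urine (18.6% of the 59 such miRNAs were). miR-1, the abundant miRNA of heart and skeletal muscle, was 9.92 times higher in urine (8.19 to 12.0), with 174 and 313 counts. miR-206, a skeletal muscle miRNA that shares its seed with miR-1, was 7.84 times higher (6.23 to 9.82), with 113 and 257 counts. On the authors' RPM these became 0.55 and 0.43 times. Their genomic partners of the miR-133 family were listed at 0 in urine. Both partners entered through serum alone and could not be higher, and 48.4% of the 31 such miRNAs were lower. miR-133a-3p, with 375 serum counts, was at least 2.10-fold lower in urine (1.13 at the lower end), so its interval does not lie wholly past 2-fold. miR-133b, with 223 serum counts, was not resolved. miR-143-3p, a smooth muscle miRNA, and miR-199a-3p, a fibroblast miRNA, were within 2-fold, at 1.52 (1.20 to 1.91) and 0.77 times (0.41 to 1.34).

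The erythroid miRNAs miR-451 and miR-92a were lower in urine, and miR-363 was higher. Of the 6 erythroid miRNAs measured, 5 were lower (34.8% of all 115 were) and 1 was higher, with a median log2 ratio of -3.80 beside -0.45 over the 115. miR-486, miR-185 and miR-16 entered through serum alone and could not be higher. Of the 3 that met both criteria 2 were lower (42.4% of the 59 such miRNAs were) and 1 was higher (18.6% were). The sum of the erythroid list took 1.30% of urine counts (1.17 to 1.45) and 14.2% of serum counts (14.1 to 14.3). miR-451, which matures without Dicer in red cell precursors, had 124 counts in urine and 40127 in serum and was 18.1 times lower in urine (15.2 to 21.8). miR-92a, with 51 and 15442 counts, was 17.0 times lower (12.9 to 22.8). miR-486, an erythroid miRNA encoded within ANK1, was listed at 0 in urine against 8179 serum counts, at least 45.8-fold lower (24.9 at the lower end).

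miR-185 and miR-16 were likewise listed at 0 in urine, at least 11.4-fold and 6.84-fold lower. miR-363 stood against this group: its 171 urine and 239 serum counts made it 12.8 times higher in urine on CPM (10.4 to 15.6), and 0.70 times on the authors' RPM. It is also a member of the cluster on the X chromosome that holds a copy of miR-92a. miR-451 in urine, at 4675 CPM, was near its levels in plasma (4139 CPM) and bile (4121 CPM), while the serum library stood at 84805 CPM.

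Of the 5 leukocyte miRNAs measured, 4 were lower in urine (34.8% of all 115 were) and 1 was not resolved. All except miR-146a-5p entered through serum alone and could not be higher, and 48.4% of the 31 such miRNAs were lower. Only miR-146a-5p, induced in inflammation, was listed in urine at all, with 15 counts against 5315 in serum, 19.9 times lower (12.0 to 35.5). miR-342 was at least 16.6-fold lower (9.04 at the lower end), miR-150, of mature lymphocytes, at least 5.65-fold (3.06), and miR-142-5p, found throughout blood cells, at least 2.81-fold (1.51). The list's sum took 0.0566% of urine counts (0.0317 to 0.0933) and 2.17% of serum counts (2.13 to 2.21). With each value listed at 0 in urine read as 9 reads the sum was 8.34-fold lower, in place of 38.4-fold. In the platelet and endothelium list, whose 3 members met both criteria, 2 were lower (42.4% of the 59 such miRNAs were), miR-24-3p by 9.38 times (7.09 to 12.7) and the endothelial miR-126-3p by 8.42 times (5.01 to 15.4). miR-191, abundant in platelets, lay within 2-fold at 0.54 times (0.43 to 0.66).

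**Figure D3:**
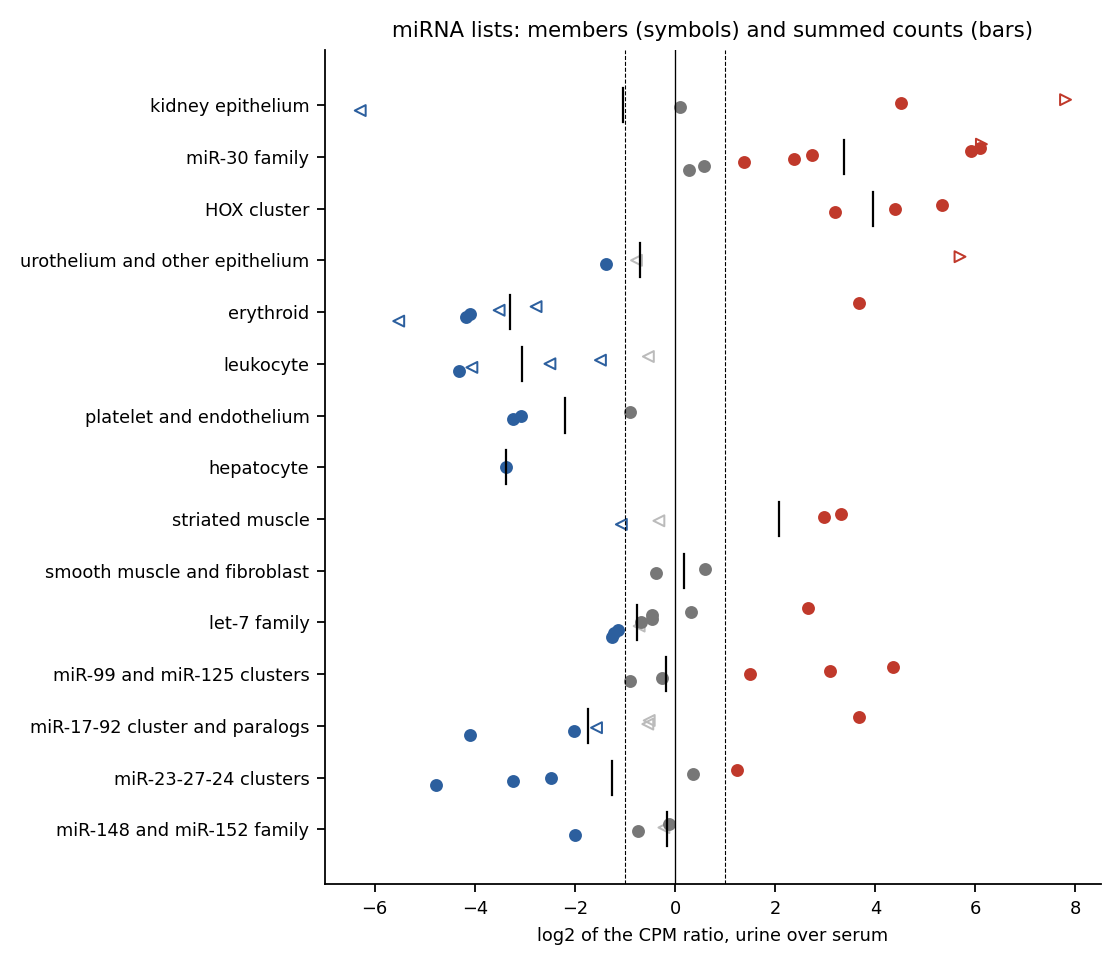
Log2 of the CPM ratio of urine over serum for the members of 15 miRNA lists (symbols) and for each list's summed counts (black bars, with a value listed at 0 read as 9 reads against the direction); triangles are bounds from a value listed at 0, red is higher and blue lower by 2-fold, and dashed lines mark 2-fold. The miR-30 and HOX lists lie to the right and the erythroid and leukocyte lists to the left, except miR-363, while the kidney list spans both sides. Members that entered through 1 library could lie past 2-fold on its side alone. On the authors' RPM all values would shift by -4.18, which puts the sums of the miR-30, HOX and striated muscle lists below 0.

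The let-7 family, which promotes differentiation and takes up much of most small RNA libraries, held 12.3% of urine counts (11.9 to 12.7) and 20.8% of serum counts (20.7 to 20.9). Of its 9 names 3 were lower, near the 34.8% of all 115, with 4 within 2-fold, 1 higher and 1 not resolved. let-7g, with 698 and 27591 counts, was 2.22 times lower in urine (2.06 to 2.39), let-7c 2.34 times (2.07 to 2.66) and let-7d-5p 2.39 times (1.56 to 3.89). let-7f and let-7i were within 2-fold at 0.73 and 0.63 times. let-7e, which entered through urine alone, was 6.30 times higher in urine (3.78 to 10.2), from 24 and 68 counts.

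let-7e is encoded beside miR-99b and miR-125a, which were higher in urine by 8.56 times (5.59 to 12.9) and 20.5 times (11.8 to 35.7). All 3 entered through urine alone, with serum levels of 57.1 to 159 CPM, so their common direction was fixed by the entry rule. They rest on 24 to 36 urine counts each. miR-99a, encoded beside let-7c and admitted by both criteria, was within 2-fold at 0.84 times (0.79 to 0.89), with 1086 and 23134 counts. miR-125b, which entered through urine alone, was 2.83 times higher (1.74 to 4.41), from 23 and 145 counts. miR-100, of the same family as miR-99a, stood at 0.54 times (0.37 to 0.76). miR-125a made up 57.4% of its pair with miR-125b in urine (43.2 to 70.8) and 15.7% in serum (10.6 to 22.01).

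In the miR-148 and miR-152 family, miR-148a-3p was level at 0.92 times (0.89 to 0.95), with 4401 and 85536 counts. miR-148b-3p was 3.99 times lower in urine (2.98 to 5.49). miR-152 was within 2-fold at 0.60 times (0.40 to 0.87), with 29 and 863 counts. The sum of the family, led by miR-148a-3p in both libraries, took 16.9% of urine and 19.0% of serum.

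The miR-23-27-24 miRNAs come from paralogous clusters, one holding miR-23a and miR-27a and the other miR-23b and miR-27b, each with a copy of miR-24. They separated by cluster. miR-23a had 12 counts in urine and 5892 in serum, 27.5 times lower (15.7 to 53.3), and miR-27a, with 21 and 2097, was 5.60 times lower (3.65 to 9.06). From the other cluster, miR-23b had 106 and 807 counts and was 2.34 times higher in urine (1.90 to 2.87), and miR-27b-3p, with 313 and 4367, lay within 2-fold at 1.28 times (1.14 to 1.43). miR-23a thus made up 10.2% of miR-23a and miR-23b in urine (5.37 to 17.1) and 88.0% in serum (87.1 to 88.7). miR-27a made up 6.29% of its pair in urine (3.93 to 9.45) and 32.4% in serum (31.3 to 33.6). Both pairs have nearly the same sequence, and how shared reads were counted is not stated, so the part of that counting in the shift was not tested.

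**Figure D4:**
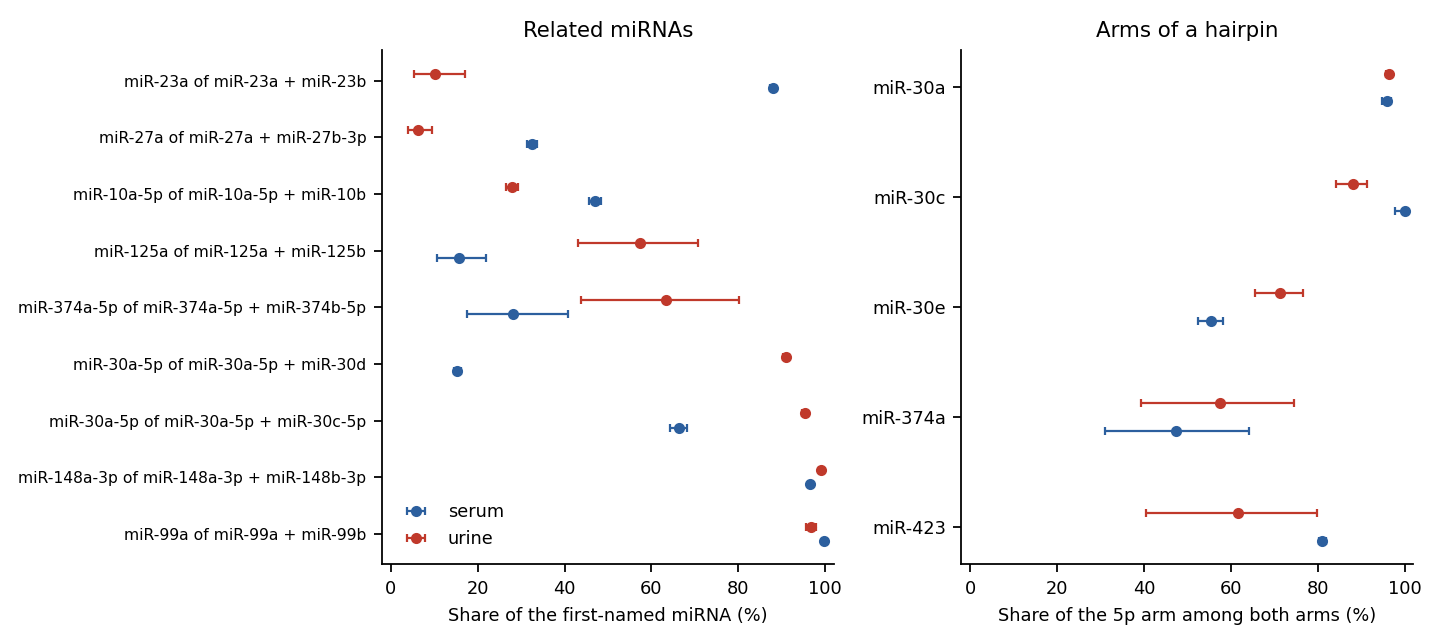
Left, share of the first-named miRNA in the counts of a related pair, for 9 of the 23 pairs, chosen after their values were seen; right, share of the 5p arm in the counts of both arms of a hairpin, for the 5 with both arms listed in urine. Points are urine (red) and serum (blue) with exact 95% intervals for counting error, and a 3p arm listed at 0 was read as 9 reads for the lower end; miR-23a goes from 88.0% of its pair in serum to 10.2% in urine, while the arms of miR-30a stand at 95.8% and 96.3%.

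The arm balance of a hairpin also compares counts within a library. Both arms were listed in urine for 5 hairpins. miR-30a gave 96.3% of its counts from the 5p arm in urine (95.8 to 96.7) and 95.8% in serum (94.7 to 96.7), a difference within counting error. miR-30e gave 71.3% in urine (65.6 to 76.6) and 55.3% in serum (52.5 to 58.2), and these intervals do not overlap. For miR-30c, 88.1% came from the 5p arm in urine (84.1 to 91.4), where 289 and 39 counts were listed. In serum 777 counts of the 5p arm stood beside a 3p arm listed at 0, which allows a 5p share down to 98.9% with 9 reads of the 3p arm (97.8 at the lower end of the interval). The arms of miR-374a, with 19 and 14 urine counts, gave 57.6% in urine and 47.4% in serum, with overlapping intervals. Those of miR-423, with 16 and 10 urine counts, gave 61.5% in urine (40.6 to 79.8) and 81.1% in serum (80.2 to 81.9).

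In the proliferation-linked miR-17-92 cluster and its paralogs 3 of 6 miRNAs were lower (34.8% of all 115 were), 1 was higher and 2 were not resolved. miR-17-5p, miR-19b and miR-92b-3p entered through serum alone and could not be higher, and 48.4% of the 31 such miRNAs were lower. miR-20a was 4.03 times lower (2.39 to 7.39), and miR-17-5p, listed at 0 in urine, at least 2.97-fold lower (1.60 at the lower end). miR-363 was the higher one.

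Of the 115 miRNAs, 112 were matched by name to miRNA genes in RefSeq's annotation of Sscrofa11.1, which was used for neighbourhood alone. Genes within 10 kb of each other formed 20 groups of at least 2 measured miRNAs, holding 45 miRNAs; names with several gene copies count in more than 1 group. In 3 groups all members were higher in urine. They were let-7e with miR-99b and miR-125a, miR-30c with miR-30e, and the X-linked miR-450b-5p, miR-450c-5p and miR-542-3p. Every member of the first and the last of these groups entered through urine alone, and so did miR-30c-3p, which fixed their direction. In 1 group, miR-23a with miR-27a and miR-24-3p, which all met both criteria, all were lower. Of the members of these same-direction groups, miR-24-3p and miR-30c have gene copies at 2 loci, and their counts cannot be assigned to 1 group. In 3 groups members lay past 2-fold in opposite directions: miR-363 against miR-92a, miR-23b against miR-24-3p and miR-222 against miR-221-3p. The first 2 of these involve a miRNA with gene copies at 2 loci, whose counts cannot be divided between them. miR-222 was 6.69 times higher (3.14 to 13.3) and miR-221-3p 2.06 times lower (1.22 to 3.80), on 12 and 14 urine counts. miR-222 entered through urine alone and could not be lower, and the interval of miR-221-3p does not lie wholly past 2-fold.

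**Figure D5:**
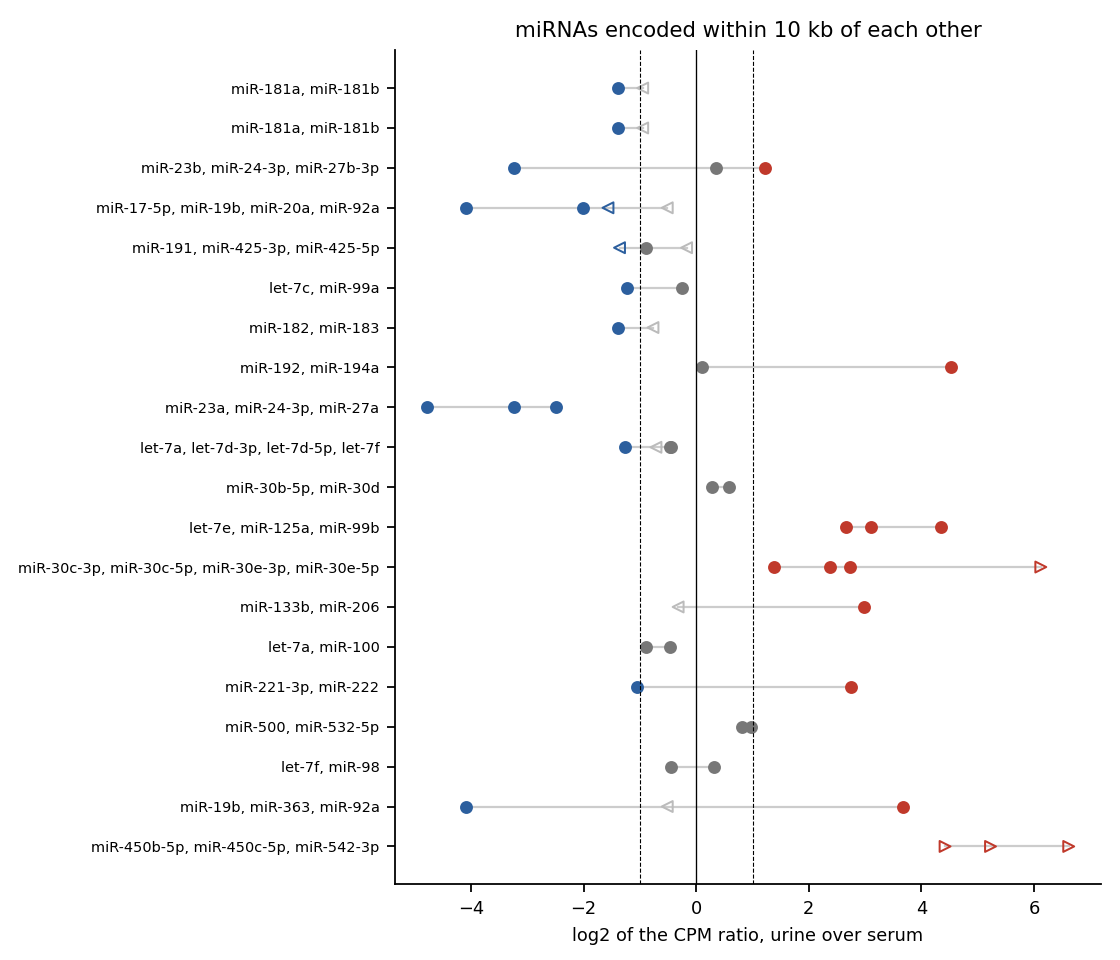
Log2 of the CPM ratio of urine over serum for miRNAs whose genes lie within 10 kb of each other in Sscrofa11.1, 1 line per group; circles are miRNAs listed in both libraries, triangles are bounds from a value listed at 0, red is higher and blue lower by 2-fold (dashed lines). The groups of let-7e, of miR-30c and of miR-450c-5p lie wholly to the right of 2-fold and that of miR-23a wholly to the left, while miR-363 and miR-92a stand on opposite sides; the members of the let-7e and miR-450c-5p groups entered through urine alone.

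Outside the lists stood 50 of the 115 miRNAs, 15 of them higher and 17 lower in urine, shares near the 30.4% and 34.8% of all 115. Of the 15 higher, miR-26a alone met both criteria. miR-450c-5p had 55 urine counts and was listed at 0 in serum, at least 98.1 times higher (49.5 at the lower end). Its neighbours miR-450b-5p and miR-542-3p, also listed at 0 in serum, had 21 and 12 urine counts, at least 37.5 and 21.4 times higher. miR-9, a miRNA known from neural tissue, had 38 urine counts and miR-1285 had 36, and both were listed at 0 in serum, at least 67.8 and 64.2 times higher. These miRNAs had few counts, and in urine at the depth of this library a miRNA under 377 CPM was not listed.

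The remaining higher miRNAs of this kind were mostly scarce too. miR-4331, miR-32, miR-127, miR-210, miR-222 and the 3 miR-374 names had 11 to 28 urine counts each, with ratios from 4.27 for miR-374b-5p (1.99 to 8.36) to 29.4 for miR-4331 (15.5 to 57.2). miR-9-2, with 14 urine counts and listed at 0 in serum, was at least 24.98 times higher (10.3 at the lower end). The abundant one was miR-26a, with 1126 and 8728 counts, 2.30 times higher on CPM (2.16 to 2.45) and 0.13 times on the authors' RPM. miR-21, expressed in most tissues, was within 2-fold at 1.73 times (1.63 to 1.83), with 1204 and 12427 counts.

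Among the lower miRNAs outside the lists, miR-140-3p had 92 counts in urine and 38451 in serum and was 23.4 times lower (19.1 to 29.1). Its serum level of 81263 CPM exceeded those of plasma (1487 CPM), semen (462 CPM) and bile (564 CPM), and urine, at 3469 CPM, was the next highest. miR-423-5p was 24.3 times lower in urine (15.0 to 42.6) and miR-423-3p 9.09 times (4.93 to 19.0). miR-320, which is processed without Drosha, was 10.6 times lower (7.13 to 16.6), and miR-103 6.43 times (4.41 to 9.77). miR-128, miR-139-5p, miR-2320-5p, miR-574, miR-425-5p and miR-339 were listed at 0 in urine, at least 6.65-fold to 2.35-fold lower. miR-7134-3p, miR-186, miR-181a, miR-28-3p and miR-7, listed in both libraries, were 4.67 to 2.18 times lower, and of these the whole interval lay past 2-fold for miR-7134-3p (2.82 to 8.36) and miR-186 (2.42 to 5.46) alone. miR-378, with 332 and 6778 counts, was within 2-fold at 0.87 times (0.78 to 0.98).

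Near equality outside the lists were miR-378b-3p, at 716 CPM in both libraries, miR-101 and miR-29a, with 0.94 and 1.02 times the serum CPM, and miR-22-3p with 0.84. miR-151-3p stood at 1.39 times (1.20 to 1.60). The X-linked neighbours miR-532-5p and miR-500 stood at 1.76 (1.41 to 2.17) and 1.96 times (0.95 to 3.66), without reaching 2-fold. miR-500 entered through urine alone, on 11 urine counts, and could not be lower. Those that the urine depth left unresolved were miR-425-3p, miR-769-5p, miR-1307, miR-361-3p, miR-744, miR-296-3p, miR-9841-3p, miR-181b and miR-181d-5p, each listed at 0 in urine.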

How the data were processed

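Small RNA from exosomes was sequenced, per the labels' protocols after isolation with a commercial reagent, Trizol extraction and gel size selection. The submitters' processing notes name bcl2fastq 2.17 and the genome build Sscrofa10.2. Not stated in the sources used here are the aligner, the annotation and how reads matching more than 1 miRNA were counted. The authors deposited a read count per mature miRNA, and a second column whose values behave as RPM, the authors' scaling to a total larger than the miRNA sum. Dividing counts by RPM gave 1 total per library, 10796777 reads in urine and 10593418 in serum, with deviations up to 0.00385%.

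CPM ratios carry exact conditional binomial 95% intervals, and shares exact Clopper-Pearson intervals (scipy 1.17.1). The ratio intervals alone were tried on simulated counts that held counting error only and had no listing limit. That trial cannot speak for ratios with a value listed at 0. Both kinds of interval cover counting error only, with 1 library a side. They treat each read as independent, although the protocol names no molecular identifiers by which copies made in amplification could be told apart. The planned floor for a value listed at 0 was 10 counts. Alternatives used edgeR 4.0.16 (TMM) and DESeq2 1.42.0 for scaling alone. The miRNAs and lists were chosen with earlier results of these data known. Lists take every arm of a name. By rule the text names the 10 most abundant miRNAs of each library, the 10 largest ratios in each direction with the whole interval past 2-fold, the 5 nearest equality with 100 counts in both, the 2 most abundant of each list and those at the entry limits; other names were chosen after their values were seen. No miRNA sequences were at hand, so families follow names.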

Additional observations from a re-analysis of the deposited data

How the results depend on the processing

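The counts of 35 higher and 40 lower miRNAs stayed within 1.5 times under TMM (35 and 46), DESeq2 size factors (38 and 32), totals without the most abundant miRNA (36 and 38), centring on the median ratio (35 and 40), a floor of 3 counts (35 and 56), no filter on low counts (35 and 40) and serum scaled to the urine total with values under 10 set to 0 (27 and 40). All 35 stayed higher under TMM, DESeq2 and the totals without the most abundant miRNA, and of the 40, 40, 32 and 38 stayed lower under these in turn. They moved to 10 and 92 on the authors' RPM, to 12 and 20 with at least 100 counts in urine or 4000 CPM in serum, and, chosen after seeing the data, to 11 and 25 among miRNAs that met both criteria. At 4-fold 31 were higher and 23 lower. Among the 43 miRNAs named by rule, the direction reversed on the authors' RPM for miR-10a-5p (0.51 times), miR-26a (0.13), miR-1 (0.55), miR-206 (0.43) and miR-363 (0.70). The sums of the miR-30 (0.57), HOX (0.85) and striated muscle (0.23) lists reversed as well. Other miRNAs higher on CPM, outside that rule, also fell below serum on RPM. Among them were miR-30c-5p (26.8 RPM in urine, 73.3 in serum), miR-30e-5p (18.0 and 62.6), miR-30e-3p (7.22 and 50.5) and miR-23b (9.82 and 76.2). No other direction among the 43 miRNAs named by rule and past 2-fold reversed under any alternative. Of the 17 hairpins with 20 or more counts over both arms in each library, 7 had 100 or more in each. The sum of the epithelial list was 2.08-fold lower in urine, and 1.63-fold lower with each value listed at 0 read as 9 reads. The urine depth limits what can be seen to 377 CPM. No paired analysis was possible because each fluid has 1 library and the labels give no replicate numbers.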
